A study of Arabidopsis thaliana with 6 samples.

Results

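The tau class glutathione transferases (GSTU) of Arabidopsis thaliana were followed in seedlings in which chloroplast division was inhibited. Members were all probe sets of the deposited value table assigned to exactly 1 gene whose symbol begins with GSTU and a number, which gave 11 probe sets for 11 genes, out of 22746 probe sets that are no array controls and 13286 genes named from 1 probe set or more. The TAIR10.1 gene table lists 27 genes with such a symbol, and the other 16 were not analysed here. The family was selected on the signal of GSTU25 (AT1G17180), which was very low after prolonged induction, so the levels of GSTU25 are given as a description with no test, while the other 10 members entered through their symbol.

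Glutathione transferases join the tripeptide glutathione to reactive or foreign molecules, or carry such molecules, and plants then move the conjugates into the vacuole. The tau class is specific to plants, is one of the large classes in Arabidopsis, and is known for genes that respond strongly to herbicides, oxylipins, pathogens and other stresses. Many of its genes lie in tandem groups on the chromosomes.

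Whole 14-day-old seedlings with 4 rosette leaves, of Landsberg background and grown in constant light, were measured on 6 Affymetrix ATH1 arrays, 2 in each of 3 groups. Prolonged induction seedlings carried a T-DNA, were sown on plates with 2 µM estradiol as inducer and were sprayed with it at intervals of 24 h until harvest. Temporal induction seedlings carried a T-DNA and received 1 spray of 2 µM estradiol on day 13, 24 h before harvest. Control seedlings carried a T-DNA with only the PER-10 vector and had the single day 13 spray of 2 µM estradiol too. All 3 groups thus met the inducer, but prolonged seedlings met it for longer. No vector control had the prolonged treatment, so a difference of prolonged induction from either group cannot be told apart from longer exposure to estradiol. The labels write 17-B-estradiol for control and 7-B-estradiol for both inductions, and give the background as Ler-0 in control and Ler-1 in both inductions. A difference of either induction from control therefore cannot be told apart from a difference between the lines, and no induced line without inducer was among the groups. The labels leave the inducible gene without a name. They do not say whether replicates were separate cultures either, so p-values cover the spread between arrays alone, which may be technical.

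Signals are MAS5 intensities on a linear scale, and all arrays had been scaled to a trimmed mean of 100.01, with median signals of 53.1 to 58.8. The number of arrays, 2 per group, limits the precision. The ratio of the 3′ to the 5′ actin control, a sign of RNA integrity, was 6.14 and 4.45 in the prolonged arrays, 3.19 and 5.22 in the temporal arrays and 4.19 in both control arrays, and its part in the results below was not tested. Both inductions lay below control with no overlap for all 4 measured leaf markers of 6 listed and all 3 measured root markers of 7 listed. Of all probe sets, 23.9% did so in prolonged and 22.4% in temporal induction, each taken singly. The share for both inductions at once was not computed. Of the leaf markers LHCB4.3, PRK, SBPASE and RCA, 4 passed as lower in prolonged induction, where 3.18% of all tested probe sets did. In temporal induction 3 passed as lower, all but RCA, where 2.42% of tested probe sets passed in either direction. Of the root markers 0 passed in either. The lists were chosen with earlier results of these data known, so these counts are a description and no independent support. The leaf markers had summed signals of 11881 to 13470 in prolonged arrays, 14699 to 14902 in temporal arrays and 18316 to 20540 in control arrays. The root markers summed to 2679 to 3872 in prolonged arrays, 3698 to 3784 in temporal arrays and 4172 to 4813 in control arrays. Both organs were thus represented in every group, as the whole plant label has it. Of 7 genes listed as flower markers only AGL24 was measured, with 74.6 and 44.8 in prolonged arrays, 79.9 and 81.4 in temporal arrays and 21.3 and 21.0 in control arrays. It did not pass against control in prolonged (adjusted p = 0.0860 in limma) or temporal induction (0.0516). AGL24 alone was not taken as a sign of flower tissue.

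GSTU25 encodes a tau class enzyme that in Arabidopsis conjugates the explosive TNT with glutathione. Its signal was 13.9 and 24.99 in the prolonged arrays, 203 and 182 in the temporal arrays, and 379.9 and 260.2 in the control arrays. The 3 groups did not overlap, with the prolonged arrays far below the other 4 and the temporal arrays between them and control. The means were 19.4 ± 7.87 in prolonged, 193 ± 15.0 in temporal and 320.1 ± 84.6 in control seedlings (SD, n = 2 each), so that the prolonged mean was 6.07% and the temporal mean 60.2% of that of control. On the log2 scale the difference was −4.08 for prolonged minus control, −0.71 for temporal minus control and −3.37 for prolonged minus temporal. The SE of each was 0.33 in limma, which moderates it towards the spread of other probe sets, and 0.42 from the 6 GSTU25 values alone. Among 15922 tested probe sets the first and the third of these were the lowest of all, rank 1, while the temporal difference ranked 1101 from the lowest. These ranks describe the values for which the gene was taken up, and in whole seedlings fewer cells of a type and less RNA per cell cannot be told apart. The prolonged mean lies under 23.5, the mean signal over 6 arrays below which no probe set was tested, so the size of the difference is not exact. Adding 27.7 to every signal before taking log2 gave −2.87 for prolonged minus control and −2.24 for prolonged minus temporal. All 3 measured root markers were lower in prolonged than in control arrays with no overlap, and 0 of them passed. The root hair gene EXPA18 read 24.1 and 11.5 in prolonged arrays, 56.5 and 57.8 in temporal arrays and 60.6 and 66.3 in control arrays. The other 2 overlapped between prolonged and temporal arrays. The root hair gene EXPA7 read 27.5 and 50.1 in prolonged arrays, 53.5 and 43.0 in temporal arrays and 104.7 and 86.7 in control arrays. The root β-glucosidase gene PYK10 read 3820.1 and 2618 in prolonged arrays, 3674 and 3597 in temporal arrays and 4006 and 4660 in control arrays. The part of the root markers in the GSTU25 values was not tested.

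**Figure D1:**
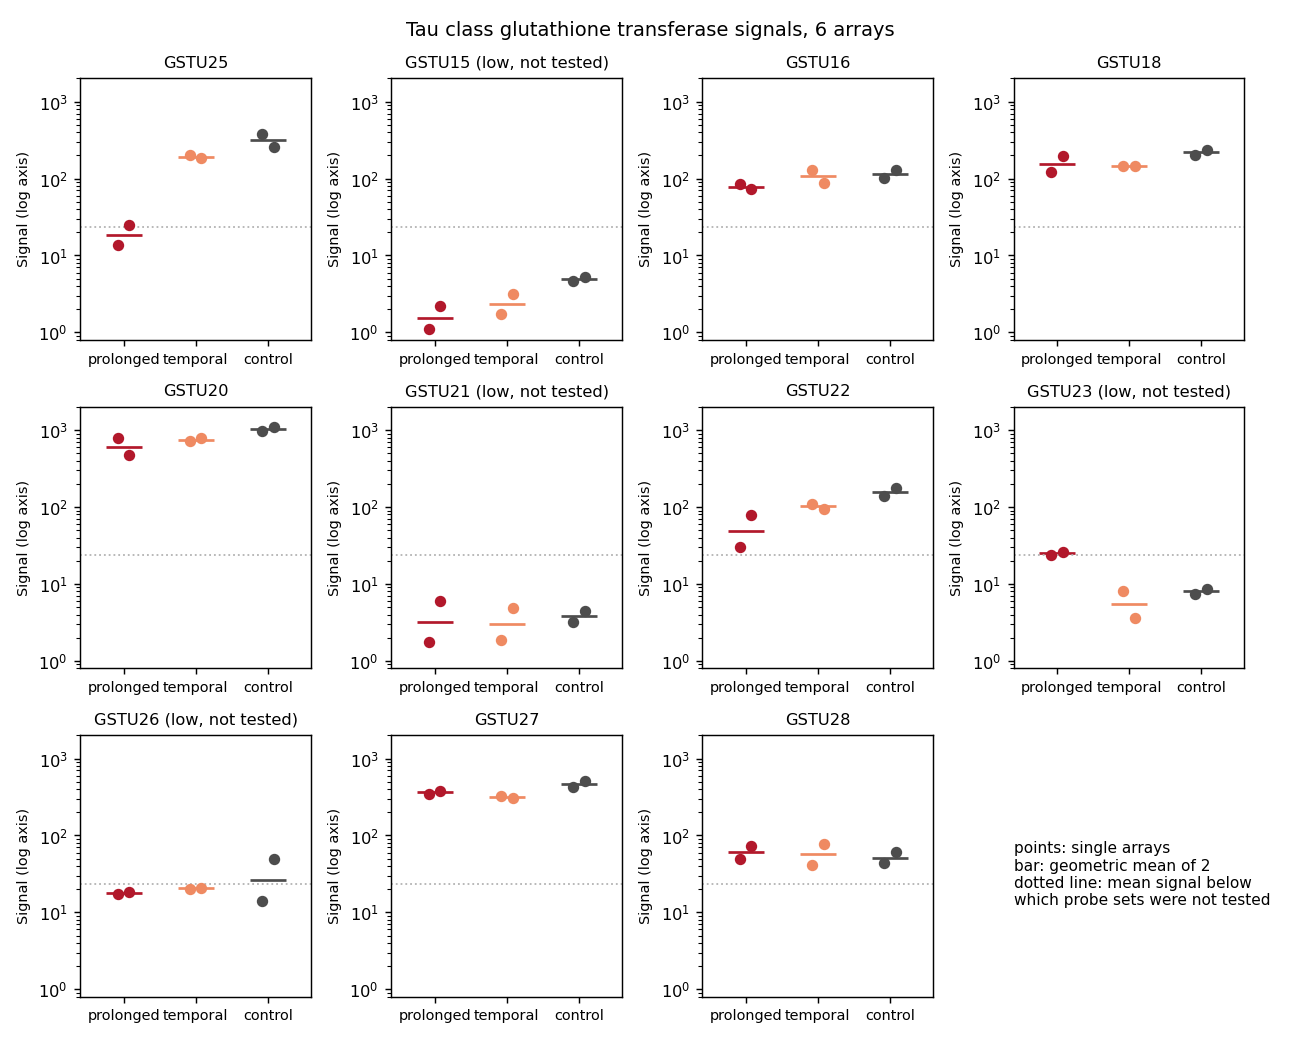
Signal of the 11 GSTU genes on each of 6 arrays (log axis), with the groups in the order prolonged, temporal and control, points for single arrays, bars for geometric means of 2, and a dotted line at 23.5. GSTU25 sits at 13.9 and 24.99 in prolonged arrays, against 182 to 379.9 in the other 4. No other tested member falls that far, which follows from the choice of GSTU25. GSTU15, GSTU21, GSTU23 and GSTU26 were too low to test.

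Of the 10 other members, 6 were tested, and 1 of them, GSTU22 (AT1G78340), passed in prolonged induction against control, with a fall. The test was limma, fitted on all 6 arrays and all 15922 tested probe sets, with a threshold of 0.05 on the p adjusted by Benjamini-Hochberg. In that comparison 3.18% of all tested probe sets passed as lower and 3.77% as higher, and 0 members passed as higher. There 3 of the 6, GSTU22 among them, had an unadjusted p under 0.05 in limma, and the share over all tested probe sets was not computed. In temporal induction against control 0 of the 6 passed, where 2.42% of tested probe sets did in either direction, and 3 of the 6 had an unadjusted p under 0.05, where 14.7% did. In prolonged against temporal induction 0 of the 6 passed, where 0.0879% of tested probe sets did, and 1 of the 6, GSTU22, had an unadjusted p under 0.05, where 5.9% did. The comparisons of both inductions with control share the control arrays, so their values are not independent of each other. An exact rank test of 2 arrays against 2 cannot give a two-sided p under 0.333, and the tests rest on the spread pooled over groups and probe sets.

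Over the members as a list, tested or not, prolonged minus control differences were below 0 for 8 of the 10 members other than GSTU25, where 53.5% of all 22746 probe sets were below 0. Their median was −0.52 on the log2 scale, or −0.54 with GSTU25, beside −0.05 over all probe sets. Temporal minus control differences were below 0 for 9 of the 10, against 51.0% of all probe sets, with a median of −0.51, or −0.55 with GSTU25, beside −0.01 over all probe sets. Prolonged minus temporal differences were below 0 for 5 of the 10, against 52.6%, with a median of −0.05, or −0.19 with GSTU25, beside −0.02. The 4 members too low to test are among the 10, and the signs carry no test. Leaving out GSTU25, both prolonged arrays lay below both control arrays for 6 of 10 members and above them for 1, where 23.9% and 20.2% of all probe sets did so. Both temporal arrays lay below both control arrays for 5 of 10 and above them for 0, where the shares over all probe sets were 22.4% and 20.6%. Between prolonged and temporal arrays 3 of 10 were apart and lower and 2 of 10 apart and higher, with 18.7% and 15.8% over all probe sets.

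**Figure D2:**
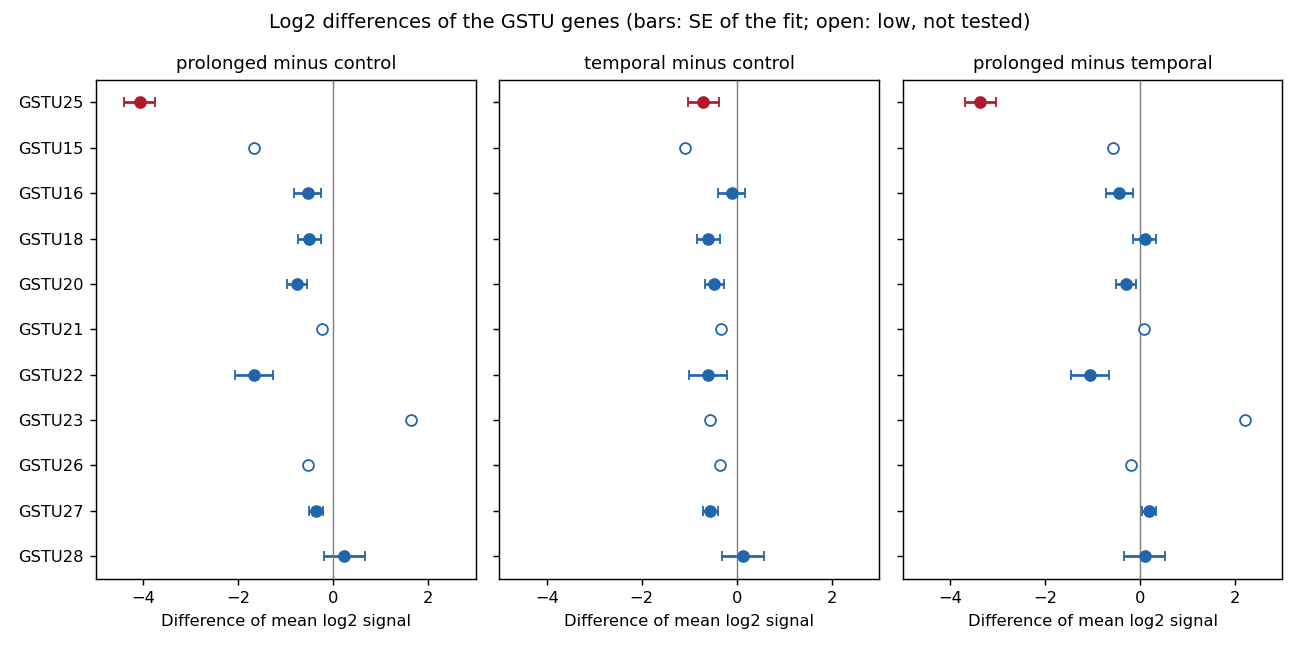
Differences of mean log2 signal (x axis) for the 11 GSTU genes (rows) in prolonged minus control, temporal minus control and prolonged minus temporal, with filled points and bars for the 7 tested genes and their SE, and open points for the 4 with low signals. GSTU25 stands at −4.08, −0.71 and −3.37, GSTU22 at −1.67 in prolonged minus control, and GSTU23 at 1.64 and 2.20 in the comparisons that involve prolonged arrays.

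The genes GSTU20 to GSTU23 lie next to each other on chromosome 1, with 0 other protein-coding genes between them in the TAIR10.1 order. Both inductions lay below control with no overlap for GSTU20 and GSTU22, while GSTU21 and GSTU23 were too low to test. GSTU22 read 30.6 and 78.8 in prolonged arrays, 110.1 and 95.2 in temporal arrays and 138 and 176 in control arrays. Its groups did not overlap, with prolonged lowest and control highest. The mean was 54.7 ± 34.1 in prolonged, 103 ± 10.6 in temporal and 157 ± 26.5 in control seedlings, so that the prolonged mean was 34.8% of that of control. The prolonged minus control difference was −1.67 ± 0.40 (SE; adjusted p = 0.0296 in limma), and the 2 prolonged arrays themselves differed by more than 2-fold. Among the 6 omissions of 1 array, the call was lost without prolonged replicate 1 (log2 difference −0.99, adjusted p = 0.122), temporal replicate 1 (0.0565), temporal replicate 2 (0.0530), control replicate 1 (0.0550) or control replicate 2 (0.112). It held without prolonged replicate 2 (log2 difference −2.35, adjusted p = 0.0087). Temporal minus control was −0.61 ± 0.40 (adjusted p = 0.537, 95% interval −1.49 to 0.27), and prolonged minus temporal was −1.06 ± 0.40 (adjusted p = 0.748, unadjusted 95% interval −1.94 to −0.18).

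GSTU20 (AT1G78370), also named FIP1 for its binding to the light and jasmonate signalling enzyme FIN219, had signals of 795 and 467 in prolonged arrays, 720 and 778 in temporal arrays and 979 and 1095 in control arrays. Control was apart from both inductions, which overlapped each other. Means were 631 ± 232 in prolonged, 749 ± 40.7 in temporal and 1037 ± 81.3 in control seedlings. The prolonged minus control difference of −0.76 ± 0.21 missed the threshold narrowly (adjusted p = 0.0529 in limma, unadjusted 95% interval −1.22 to −0.30). It passed as lower under 5 other settings that left out no array, with adjusted p from 0.0369 to 0.0489 in limma. It did not pass after median centring (adjusted p = 0.107), with no filter (0.0819) or with the filter on the arithmetic mean (0.0512). Nor did it pass with no intensity trend (0.298) or in the fit of only the 2 groups compared (0.0783). The log2 difference was −1.15 without prolonged replicate 1 and −0.38 without prolonged replicate 2. Temporal minus control was −0.47 ± 0.21 (adjusted p = 0.329), and prolonged minus temporal was −0.30 ± 0.21 (adjusted p = 0.945).

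GSTU23 (AT1G78320) was the only one of the 11 whose signals were higher in prolonged than in control arrays with no overlap. It read 23.6 and 26.3 in prolonged arrays, 8.19 and 3.57 in temporal arrays and 7.37 and 8.71 in control arrays. Prolonged was apart from the other groups, which overlapped. Its mean over all arrays was too low for the test, so the differences of 1.64 for prolonged minus control and 2.20 for prolonged minus temporal on the log2 scale have no p-value, and differences at such signals are not exact. GSTU21 (AT1G78360) stayed low throughout, with 1.75 and 5.96 in prolonged arrays, 1.88 and 4.94 in temporal arrays and 3.22 and 4.50 in control arrays, and its groups overlapped.

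GSTU26 (AT1G17190) is the direct neighbour of GSTU25, with 0 protein-coding genes between them. It read 17.6 and 18.5 in prolonged arrays, 20.4 and 20.8 in temporal arrays, and 14.1 and 48.8 in control arrays. The control arrays lay on both sides of the induced ones, and the gene was too low for the test. Prolonged minus control was −0.54 for GSTU26. A signal this low could hardly show a fall of the size seen in GSTU25, so no conclusion is drawn on whether the next gene shared it.

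GSTU15 (AT1G59670) and GSTU16 (AT1G59700) are 3 genes apart. GSTU15 read 1.10 and 2.21 in prolonged arrays, 1.72 and 3.16 in temporal arrays and 4.61 and 5.31 in control arrays. Control was apart from both inductions, but all 6 values lie far under 23.5 and the gene was not tested. GSTU16 read 85.4 and 72.3 in prolonged arrays, 128 and 88.3 in temporal arrays and 101 and 129 in control arrays. The prolonged arrays were below the other 4, and temporal and control arrays overlapped. Its prolonged minus control difference was −0.54 ± 0.29 (adjusted p = 0.335 in limma, 95% interval −1.17 to 0.09), temporal minus control was −0.10 ± 0.29 (adjusted p = 0.923), and prolonged minus temporal was −0.44 ± 0.29 (adjusted p = 0.938).

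Of the 3 members without a measured close neighbour none passed in any comparison. GSTU27 (AT3G43800), the only member on chromosome 3, read 350.0 and 377 in prolonged arrays, 328 and 310.1 in temporal arrays and 433 and 506 in control arrays. All 3 groups were apart, with temporal lowest, prolonged between and control highest. Temporal minus control was −0.55 ± 0.15 and did not pass (adjusted p = 0.0989 in limma, unadjusted 95% interval −0.89 to −0.22), prolonged minus control was −0.36 ± 0.15 (adjusted p = 0.210), and prolonged minus temporal was 0.19 ± 0.15 (adjusted p = 0.957). GSTU18 (AT1G10360) read 123 and 193 in prolonged arrays, 144 in both temporal arrays and 200.1 and 238 in control arrays. Control was apart from both inductions, which overlapped. Its differences were −0.60 ± 0.24 for temporal minus control (adjusted p = 0.272), −0.50 ± 0.24 for prolonged minus control (adjusted p = 0.278) and 0.10 ± 0.24 for prolonged minus temporal (adjusted p = 0.9999). GSTU28 (AT1G53680) read 49.8 and 73.9 in prolonged arrays, 41.8 and 76.9 in temporal arrays and 44.3 and 60.1 in control arrays. All 3 groups of GSTU28 overlapped, and the 95% interval of prolonged minus control, −0.73 to 1.19, holds changes in either direction.

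**Figure D3:**
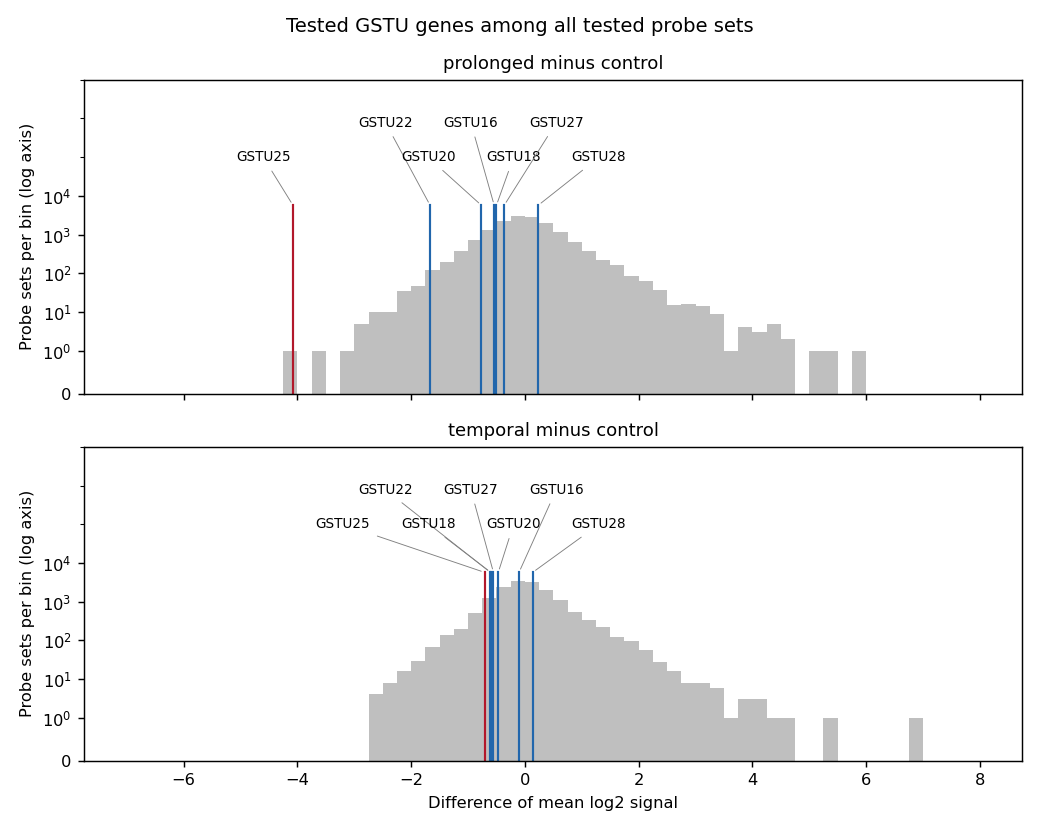
Number of tested probe sets (log axis) by difference of mean log2 signal, in bins of 0.25, for prolonged minus control (top) and temporal minus control (bottom), with lines at the 7 tested GSTU genes. GSTU25 is at −4.08, the lowest value of all in the top panel, and at −0.71 in the bottom panel, the lowest of the 7 lines there, next to GSTU22 at −0.61.

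Both inductions were below control with no overlap for GSTU15, GSTU18, GSTU20, GSTU22, GSTU25 and GSTU27. Among these, prolonged was below temporal for GSTU22 and GSTU25, prolonged was above temporal for GSTU27, and the inductions overlapped for GSTU15, GSTU18 and GSTU20. Only the 2-array spread stands behind these orders, and of the 6 members tested besides GSTU25, GSTU22 alone passed in limma, in 1 of 3 comparisons. Taken singly, 23.9% (prolonged) and 22.4% (temporal) of all probe sets lay below control with no overlap. The share for both inductions at once was not computed, and both comparisons use the same control arrays. GSTU25 was chosen for its low level, and GSTU15 was too low to test.

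Across the rest of the glutathione system few genes could be measured, since the probe name table leaves many probe sets without a symbol. Of 14 listed genes for glutathione supply and recycling 2 were measured and tested. In prolonged induction against control 1 of them passed as lower, where 3.18% of all tested probe sets did. This was GR2 (AT3G54660, GR in the TAIR10.1 table), the glutathione reductase of plastids and mitochondria that returns oxidised glutathione to its reduced form, with 484 and 445 in prolonged arrays, 517 and 469.8 in temporal arrays and 676 and 742 in control arrays. Both inductions were below control and overlapped each other. Prolonged minus control was −0.61 ± 0.14 (adjusted p = 0.0247 in limma), and temporal minus control was −0.52 ± 0.14 (adjusted p = 0.0869). The call was lost after median centring (adjusted p = 0.0674), without the intensity trend (0.231), without prolonged replicate 1 or 2 (0.0542 and 0.0920) and without control replicate 1 or 2 (0.0597 and 0.123). GR1 (AT3G24170), the reductase of cytosol and peroxisomes, read 289 and 205 in prolonged arrays, 233 and 255 in temporal arrays and 301 and 251 in control arrays, and its groups overlapped (prolonged minus control −0.18 ± 0.20, adjusted p = 0.698).

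Of 25 genes of other glutathione transferase classes 3 were measured and 1 was tested, and 0 passed in any of the 3 comparisons. GSTL3 (AT5G02790), of the lambda class, whose enzymes act as thiol transferases, read 981 and 939.9 in prolonged arrays, 827 and 849 in temporal arrays and 848 and 862 in control arrays. Its prolonged arrays were the highest, and 20.2% of all probe sets lay higher in prolonged than in control arrays with no overlap. The GSTL3 difference from control of 0.17 ± 0.12 did not pass (adjusted p = 0.502 in limma, 95% interval −0.10 to 0.44). The phi class genes GSTF4 (AT1G02950) and GSTF13 (AT3G62760) had 2.93 to 15.0 on all arrays and were not tested. Of 23 genes of the response to foreign compounds and oxylipins, many of which are induced together with tau class genes, 3 were measured, and their signals were too low to test. UGT73B5 (AT2G15480), a glycosyltransferase gene, read 27.9 and 22.6 in prolonged arrays, 6.64 and 29.3 in temporal arrays and 10.7 and 10.1 in control arrays. UGT73B4 (AT2G15490) read 4.67 and 4.93 in prolonged arrays, 8.38 and 26.6 in temporal arrays and 6.65 and 4.795 in control arrays, and AT2G04050 read 24.5 and 23.8 in prolonged arrays, 4.49 and 42.5 in temporal arrays and 8.05 and 53.5 in control arrays.

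The genes whose course over the 6 arrays came nearest to that of GSTU25 were AT3G61400, AT5G60520, AT4G03580, AT5G14650 and AT5G41710. Nearness was the Euclidean distance between log2 signals after subtracting each gene's own mean, among 8875 tested probe sets with 1 symbol. The distances ran from 1.42 for AT3G61400 to 2.06 for AT5G41710, beside 4.42 between GSTU25 and a flat course, and the correlations with GSTU25 ran from 0.92 to 0.98 over 6 arrays that form 3 groups, as a description. AT3G61400 read 6.14 and 8.23 in prolonged arrays, 60.5 and 30.1 in temporal arrays and 56.2 and 47.2 in control arrays. AT5G14650 read 12.3 and 26.2 in prolonged arrays, 66.5 and 59.9 in temporal arrays and 98.7 and 91.0 in control arrays. In all 5 both prolonged arrays lay below the other 4, which follows from the choice by nearness. AT5G14650 was the only one besides GSTU25 with both temporal arrays below both control arrays. Each had a smaller prolonged minus control difference than GSTU25, from −2.94 in AT4G03580 to −2.05 in AT5G41710, and prolonged signals of 4.24 to 26.2, where differences are not exact.

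**Figure D4:**
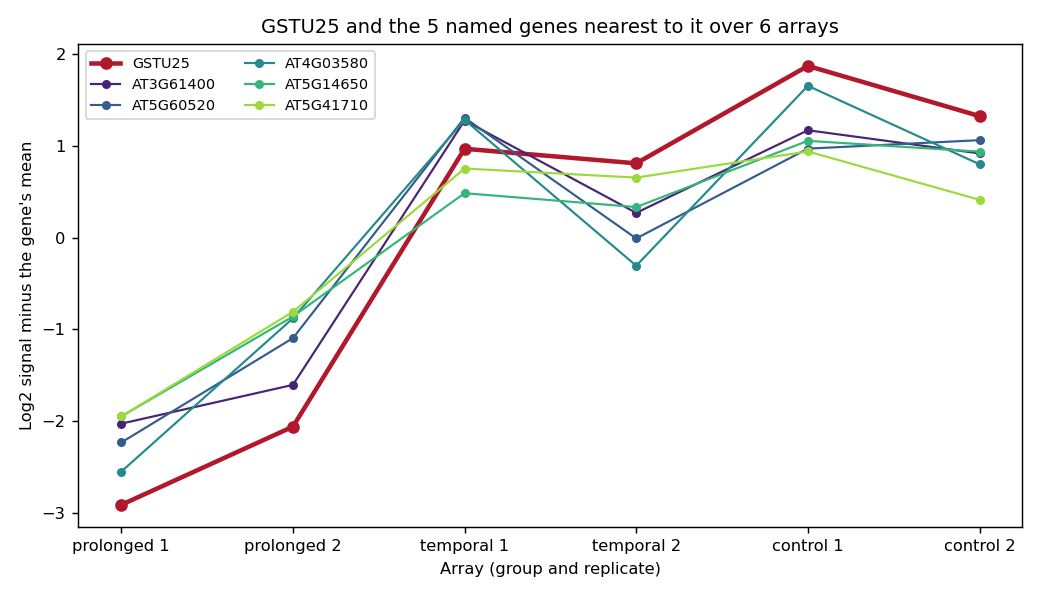
Log2 signal minus the gene's own mean (y axis) on the 6 arrays (x axis, prolonged, temporal, control) for GSTU25 and the 5 named genes nearest to it. All 6 lines lie lowest in both prolonged arrays, and GSTU25 spans the widest range.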

How the data were processed

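RNA of 6 samples was labelled by the one-cycle protocol and hybridised to ATH1 arrays, per the labels' protocols. The authors deposited 1 linear intensity signal for each probe set on each array. MAS5 and GCOS are the tools in the submitters' processing notes, with versions not given there. Detection calls were not analysed here. The members and lists were chosen with earlier results of these data known. Signals were taken to log2 here, those in the lowest 30% by mean log2 signal (under 23.5) were dropped, and limma 3.58.1 (R 4.3.3) was run on the other 15922 with an intensity trend and all 6 arrays (3 residual and 7.96 prior degrees of freedom), adjusted by Benjamini-Hochberg. The script was tested on simulated data. Of 22746 probe sets 13513 carried 1 symbol, 503 several and 8730 none, and 13436 matched the TAIR10.1 table, used for names and gene order only. Each member had 1 probe set, whose name carries no mark of shared probes, though near-identical copies can still cross-hybridise. Named by rule were every member, up to 4 passing genes per list, the 5 genes nearest to GSTU25 and its neighbours. The markers EXPA7, EXPA18, PYK10 and AGL24 and the other measured genes of the short lists (GR1, GSTL3, GSTF4, GSTF13, UGT73B4, UGT73B5 and AT2G04050) did not pass and were named after their values were seen. Alternatives were 3 scalings, an offset, 3 filters, no intensity trend, a fit of 2 groups, a replicate block and each array left out. Figures used matplotlib 3.10.9.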

Additional observations from a re-analysis of the deposited data

How the results depend on the processing

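In prolonged induction against control, 1 member besides GSTU25 passed. The number was 2, GSTU20 and GSTU22, after quantile normalization, cyclic loess, the offset, with the lowest 50% left out and with the replicate block, and it was 0 with no filter and with no intensity trend. Leaving out 1 array gave 0 to 1, the 1 being GSTU20 without prolonged replicate 1 and GSTU22 without prolonged replicate 2, and 0 without any of the other 4. The filter on the arithmetic mean was added after seeing the data and gave 1. In the other comparisons 0 passed in limma under all 16 alternatives. The GSTU25 difference was −2.87 with the offset (prolonged minus control) and −2.24 (prolonged minus temporal), and leaving out 1 array gave −4.50 to −3.65 and −3.80 to −2.95. Replicates share only a number (deviations correlated at 0.01, 0.01 and −0.06 between groups), so the replicate block is no pairing by design. Signs turned only when an array was left out, for GSTU16 temporal minus control (−0.37 to 0.16), GSTU18 prolonged minus temporal (−0.23 to 0.43), GSTU20 prolonged minus temporal (−0.68 to 0.087), and GSTU28 prolonged minus control (−0.052 to 0.52), temporal minus control (−0.30 to 0.58) and prolonged minus temporal (−0.34 to 0.54). None of these passed in any setting for that comparison, and the cause was not tested. Each GSTU gene has 1 probe set, so choosing another was not run. Low signals limit GSTU15, GSTU21, GSTU23 and GSTU26.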

Other observations

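Among the nearest genes with a named probe set on either side of GSTU25 on the chromosome, 3 were tested. Of these 0 passed in prolonged induction against control, where 3.18% of tested probe sets passed as lower and 3.77% as higher. Probe sets without a symbol were not placed on the chromosome. AT1G17150, 3 places before it in the TAIR10.1 order, read 42.8 and 28.5 in prolonged arrays, 51.3 and 53.1 in temporal arrays and 75.5 and 46.8 in control arrays (prolonged minus control −0.77 ± 0.45, adjusted p = 0.388 in limma), so that its prolonged arrays were the lowest, as in GSTU25, at a smaller difference. AT1G17160, 2 places before it, read 76.2 and 62.2 in prolonged arrays, 81.2 and 62.6 in temporal arrays and 65.7 and 52.2 in control arrays (0.23 ± 0.34, adjusted p = 0.773). FUG1 (AT1G17220), 4 places after it, which encodes a plastid translation initiation factor, read 629.96 and 426 in prolonged arrays, 553 and 525 in temporal arrays and 524 and 697 in control arrays (−0.22 ± 0.20, adjusted p = 0.596). GSTU24, the gene directly before GSTU25, was not analysed here.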
